A study of Mus musculus with 10 samples.

Results

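The genes described are 6 receptors through which leukocytes sense chemoattractants: C5ar1, C3ar1, Fpr1, Fpr2, Ltb4r1 and Ptafr. They were chosen by name, with earlier results of these data known. All 6 were found among the 26173 genes of the deposited expression table. Alveolar macrophages, the resident phagocytes of the airspace, of C57BL/6 mice were profiled by RNA sequencing in 5 groups of 2 samples, and the labels give the mice as female and 16 weeks old. Macrophages of the conditional line came from Bach2-floxed mice with CD4cre, a Cre recombinase under a driver of T cells, and whether Bach2 was deleted in the macrophages is not stated. That line gave a control group and a pair of knockout fractions, one with the surface markers of control macrophages (normal-marker) and one with aberrant surface markers (aberrant-marker), split by markers that the labels do not name. The remaining 2 groups came from the wild type and from a germline knockout of Bach2, which affects every cell. Bach2 is a transcription repressor known for its roles in lymphocytes and macrophages, and the question was how the levels of these receptors changed where it was lost in T cells or in the whole animal.

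The 6 receptors are membrane proteins with 7 helices that act through G proteins, among them the inhibitory ones of the Gi class. C5ar1 and C3ar1 bind C5a and C3a, the small fragments released when complement components are cleaved. Fpr1 and Fpr2 bind formylated peptides that bacteria and damaged mitochondria release, and Fpr2 also binds host proteins such as annexin A1 and serum amyloid A. Ltb4r1 (BLT1) is the high-affinity receptor of leukotriene B4, and Ptafr binds platelet-activating factor; the ligands of both are lipids. On phagocytes these receptors direct migration, degranulation and the oxidative burst, and neutrophils are the cells best known for them.

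C5ar1, Fpr1 and Fpr2 were lower in the knockout libraries than in both controls, and C3ar1 was higher. The bases upstream of the start sites are shown for these genes. C5ar1, Fpr1 and Fpr2 were high in the controls, and C3ar1 was high in the aberrant-marker library. The sequences are from RefSeq (GRCm38.p6), run 5′ to 3′ along the gene and end at the base before its start site. Fpr1 and Fpr2 are next to each other in the annotation and on opposite strands. C5ar1 is shown only from the end of a first exon used by its other transcript, which leaves 174 bases.
Fpr1 (chr17:17883940-17884189, - strand): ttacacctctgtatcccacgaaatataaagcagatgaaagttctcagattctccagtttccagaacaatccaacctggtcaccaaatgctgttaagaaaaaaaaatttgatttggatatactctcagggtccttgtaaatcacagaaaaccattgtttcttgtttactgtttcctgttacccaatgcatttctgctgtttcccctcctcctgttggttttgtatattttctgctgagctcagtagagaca
Fpr2 (chr17:17887574-17887823, + strand): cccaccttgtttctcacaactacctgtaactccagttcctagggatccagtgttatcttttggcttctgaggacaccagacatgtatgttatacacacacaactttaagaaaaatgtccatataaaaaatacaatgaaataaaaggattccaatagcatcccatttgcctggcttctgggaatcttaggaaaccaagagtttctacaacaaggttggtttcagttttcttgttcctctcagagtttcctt
C5ar1 (chr7:16259339-16259512, - strand): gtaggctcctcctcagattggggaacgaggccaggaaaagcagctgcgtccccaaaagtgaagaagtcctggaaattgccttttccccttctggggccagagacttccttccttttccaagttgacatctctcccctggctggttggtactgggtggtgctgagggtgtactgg
C3ar1 (chr6:122856158-122856407, - strand): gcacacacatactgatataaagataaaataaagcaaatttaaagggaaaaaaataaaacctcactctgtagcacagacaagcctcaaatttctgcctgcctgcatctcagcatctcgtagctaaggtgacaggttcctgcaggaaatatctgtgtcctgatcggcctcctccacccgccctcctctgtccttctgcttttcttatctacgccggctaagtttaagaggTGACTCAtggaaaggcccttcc

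Capitals mark the only match to 4 short motifs in the printed bases. The 250 bases upstream of all 6 receptors were searched on both strands for TGANTCA, the core bound by AP-1 and by Bach factors, for TGANTCAGC, a longer form that contains it, for GAGGAAG, a PU.1 form, and for TTGCNNAA, a C/EBP form. C3ar1 held 1 match to TGANTCA, from base 22 to base 16 before its start, and 6.87% of 27025 upstream windows of the same length held one. Ltb4r1 held 1 match to GAGGAAG, which 10.4% of the windows held. The longer form TGANTCAGC (1.00% of windows) and TTGCNNAA (9.55%) were matched in none of the 6. A match describes these letters only, and binding was not measured.

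Values are FPKM, fragments scaled to transcript length and library size, summed over the transcripts of a gene. The steps of the lowest values put the depth at approximately 7340000 to 9330000 fragments per sample. The 2 samples of a group differed hardly more than repeat counts of 1 library: their correlation on log2(FPKM + 1) was 0.993 to 0.998, against 0.685 to 0.853 across groups. Their median squared difference over the sum, in approximate fragments, was 0.610 to 0.917, where counting noise alone gives 0.455 and samples of different groups gave 68.2 to 101. Each pair was therefore counted as 1 library, and differences between groups carry neither a replicate check nor a p-value. Bach2 itself was at 0.0571 FPKM or less in every library and could not check the genotypes. The sex-linked genes went against the labels: Eif2s3y, on the Y chromosome, was at 60.8 FPKM in the wild type and 39.9 FPKM in the germline knockout, while Xist was at 3.75 to 9.08 FPKM in the 3 conditional libraries and under 0.01 FPKM in these 2. Of 10 alveolar macrophage markers, all 10 were at 1 FPKM or more in both controls and in the normal-marker library, 8 in the aberrant-marker library and 9 in the germline knockout, and several of them were much lower in the last 2, as given beside the receptors.

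A rule of size stands in for a test. Genes are called higher or lower if FPKM + 1 differed by a factor of 4 or more (2 log2 units) between the means of 2 libraries. The same had to hold in each pairing of their samples, and the larger mean had to reach a floor of 20 FPKM. The added 1 FPKM makes the change of low genes look smaller than it was. Genes under the floor in both libraries could not be called, but they count in the shares of all genes compared. Among genes that could be called, the shares were larger. The comparison of both control libraries, which holds no knockout, shows what the rule calls without one. These libraries also differ in line and, by the sex-linked genes, in sex, and the comparison holds those differences too. All 6 receptors were among the 11336 genes compared, which needed 1 FPKM or more in 2 samples, but Ltb4r1 entered through the aberrant-marker library alone and C3ar1 through the 3 knockout libraries alone.

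Transcripts of C5ar1 and of both formyl peptide receptors were abundant in control macrophages, 9.54-fold to 52.9-fold lower in the aberrant-marker library on the log2(FPKM + 1) scale, and at 0.0472 FPKM or less on average in the germline knockout. C3ar1 and Ptafr were higher in the aberrant-marker library. In that library against the conditional control, 3 of the 6 receptors were called lower (C5ar1, Fpr1, Fpr2) and 2 higher (C3ar1, Ptafr), where 3.76% of all genes compared were lower and 4.09% higher. In the germline knockout against the wild type, the same 3 receptors were called lower and 0 higher, where 3.36% of genes were lower and 2.73% higher. The shares are given for scale only, because the receptors and the lists below were chosen with earlier results of these data known.

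**Figure D1:**
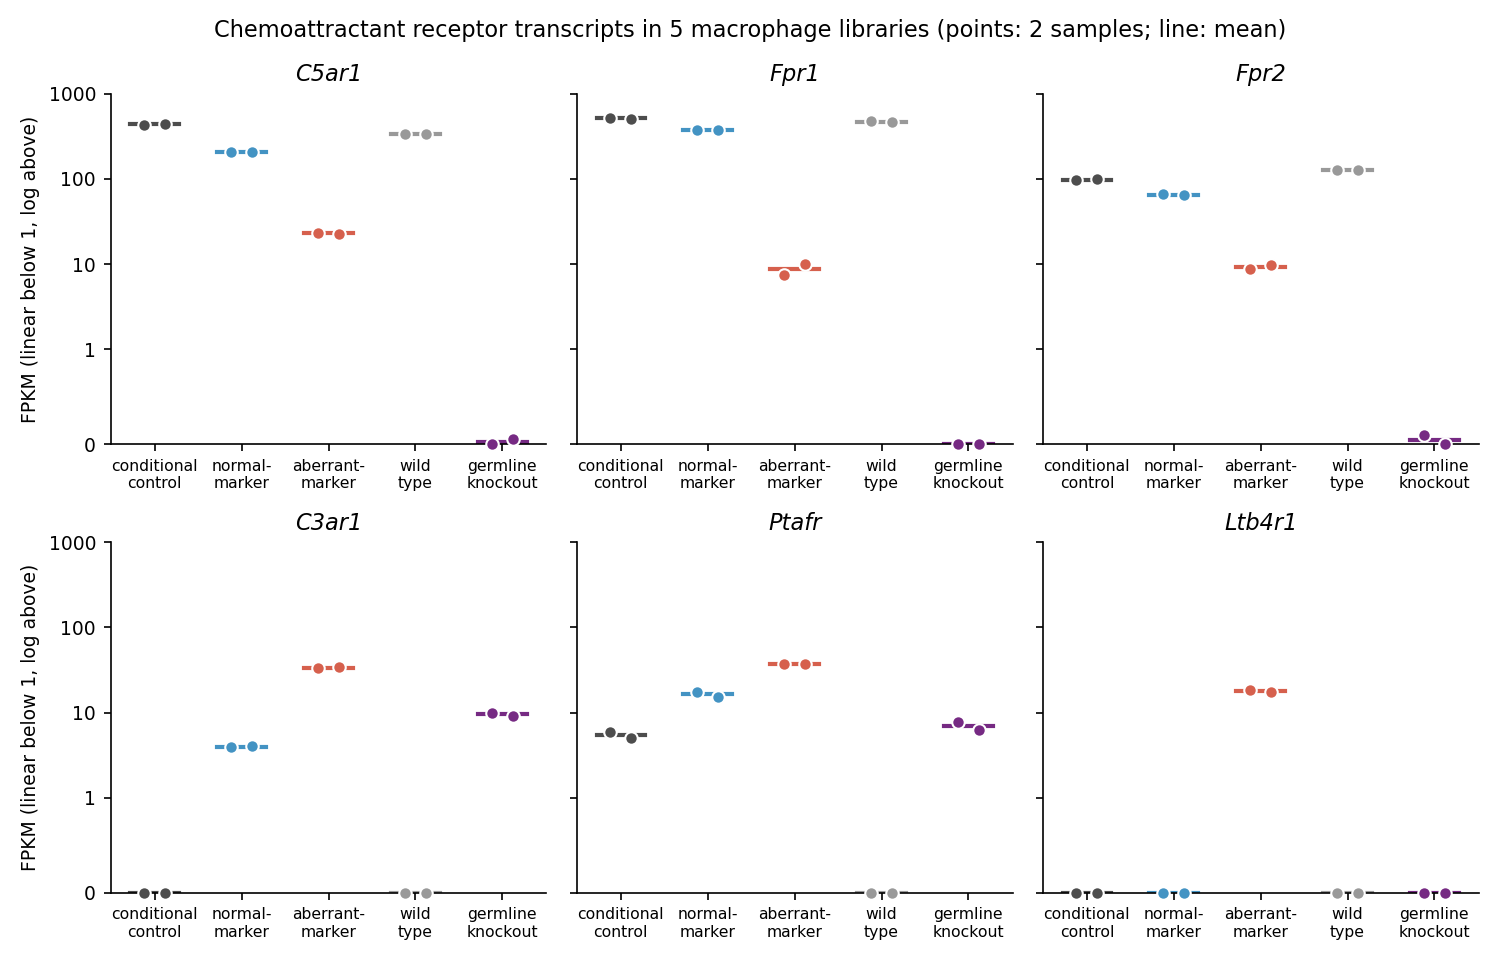
Levels of the 6 receptors in each sample, in FPKM on an axis that is linear below 1 and logarithmic above, by group; points are the 2 samples and lines their mean. C5ar1, Fpr1 and Fpr2 descend from the controls to the aberrant-marker library and reach 0 to 0.0944 FPKM in the germline knockout samples, while C3ar1, Ptafr and Ltb4r1 are highest in the aberrant-marker library.

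C5ar1, the main signalling receptor for C5a, was at 425 and 442 FPKM in samples of the conditional control and at 336 and 332 FPKM in the wild type. It was at 208 and 208 FPKM in the normal-marker samples, at 23.4 and 22.6 FPKM in the aberrant-marker samples, and at 0 and 0.0518 FPKM in the germline knockout. The 5 groups thus ranked conditional control, wild type, normal-marker, aberrant-marker and germline knockout. Samples of neighbours in that order did not overlap, which describes the precision of counting only, because each group is 1 library. The aberrant-marker library was called lower than the conditional control (log2 difference -4.18, from -4.23 to -4.12 over pairings of samples). The germline knockout level rested on approximately 1.03 fragments in both samples together, against approximately 15336 in the wild type. Between the 2 control libraries the log2 difference of C5ar1 was -0.38, with the wild type lower.

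The table lists 2 transcripts of C5ar1, of 2481 and 2540 bases. The shorter one held 74.0% to 76.1% of the gene's FPKM in every sample of the conditional control, normal-marker and wild-type groups. In the aberrant-marker library it held 63.6% in one sample and 31.8% in the other, while the sum was 23.4 and 22.6 FPKM. The sum is used throughout.

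Fpr1, the high-affinity receptor for formylated peptides, was at 523 and 505 FPKM in samples of the conditional control, 470 and 465 FPKM in the wild type, and 374 and 372 FPKM in the normal-marker samples. It was at 7.56 and 9.92 FPKM in the aberrant-marker samples and listed at 0 in both germline knockout samples. Its order over the groups was that of C5ar1. The log2 difference of the aberrant-marker library from the conditional control was -5.72 (-5.94 to -5.54 over pairings), which placed it 15th from the lowest of 11336 genes. In the germline knockout, 1 fragment on Fpr1 would have been worth approximately 0.0931 FPKM, and the wild-type level corresponded to approximately 11326 fragments over both samples. Fpr1 was the 5th from the lowest of all genes compared in that comparison, C5ar1 the 7th and Fpr2 the 12th.

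Fpr2, the broader formyl peptide receptor, was at 128 and 127 FPKM in the wild-type samples, 97.4 and 98.3 FPKM in the conditional control, and 65.7 and 65.1 FPKM in the normal-marker samples. It was at 8.83 and 9.89 FPKM in the aberrant-marker samples and at 0.0944 FPKM and 0 in the germline knockout. The wild type was above the conditional control for this gene, opposite to C5ar1 and Fpr1, and the remaining order was the same. The aberrant-marker library was called lower than the conditional control (log2 difference -3.25, from -3.34 to -3.18). The germline knockout level rested on approximately 0.885 fragments, against approximately 2638 in the wild type.

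How often an abundant gene was missing from a library of this kind was counted over all genes. Of 468 genes at 200 FPKM or more in the wild type, 6 (1.28%) were below 0.1 FPKM in the germline knockout, and C5ar1 and Fpr1 were among them. In the conditional control, 2 of the same 468 (0.427%) were below 0.1 FPKM. Of 1566 genes at 50 FPKM or more in both control libraries, 12 (0.766%) were below 0.1 FPKM in the germline knockout. These 12, counted after the receptors' values had been seen, were C5ar1, Fpr1, Fpr2, the purine receptor gene P2ry13, and Acaa1b, Cidec, Epcam, Gal, Igflr1, Perp, Rab44 and Siglec5.

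C3ar1, the C3a receptor, was higher in the knockout libraries, where C5ar1, Fpr1 and Fpr2 were lower. It was listed at 0 in both samples of the conditional control and of the wild type, at 3.99 and 4.03 FPKM in the normal-marker samples, at 10.0 and 9.02 FPKM in the germline knockout, and at 33.0 and 34.5 FPKM in the aberrant-marker samples. The 3 knockout libraries thus ranked aberrant-marker, germline knockout and normal-marker, all above both controls. The aberrant-marker level corresponded to approximately 2223 fragments over both samples and was called higher than the conditional control. The germline knockout level was below the floor of 20 FPKM and was not called. A listed 0 need not mean that the transcript was absent from the cells: Tbp, a gene that all cells use, was also listed at 0 in both wild-type samples. Of genes at 20 to 50 FPKM in the aberrant-marker library, 4.30% were below 0.1 FPKM in the conditional control and 6.34% in the wild type. These shares can include genes that control cells do not express. Of genes at 20 to 50 FPKM in the conditional control, 1.35% were below 0.1 FPKM in the wild type, and 0.654% the other way round.

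Ptafr, the receptor for platelet-activating factor, was at 5.90 and 5.01 FPKM in samples of the conditional control, listed at 0 in both wild-type samples, at 17.5 and 15.4 FPKM in the normal-marker samples, at 37.0 and 37.1 FPKM in the aberrant-marker samples, and at 7.76 and 6.33 FPKM in the germline knockout. The aberrant-marker samples were the highest and the normal-marker samples the next. The germline knockout and conditional control samples came close to each other. The log2 difference of the aberrant-marker library from the conditional control was 2.56 (2.46 to 2.66) and was called. Between the 2 control libraries the log2 difference of Ptafr was -2.69, with the wild type lower and both below the floor. Of genes at 5 to 10 FPKM in the conditional control, 17.8% were below 0.1 FPKM in the wild type.

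Ltb4r1, the leukotriene B4 receptor, was at 18.2 and 17.5 FPKM in the aberrant-marker samples and listed at 0 in the other 8 samples. It was not called, because its highest library lay just below the floor of 20 FPKM. Of genes at 10 to 20 FPKM in the aberrant-marker library, 7.63% were below 0.1 FPKM in the conditional control and 12.3% in the wild type. Of genes at that level in the conditional control, 5.84% were below 0.1 FPKM in the wild type, and 3.17% the other way round.

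In the normal-marker library against the conditional control, 0 of the 6 receptors were called in either direction, where 0.935% of genes were higher and 0.838% lower. The log2 differences were -1.06 for C5ar1, -0.46 for Fpr1, -0.57 for Fpr2, 1.43 for Ptafr and 2.32 for C3ar1, which was under the floor and listed at 0 in the control. C5ar1 differed more here than between the 2 control libraries (-0.38), and Fpr1 and Fpr2 lay below both controls. Differences of this size were common. From the lowest of the 11336 genes compared, C5ar1 ranked 2037th, Fpr2 3223rd and Fpr1 3620th. From the highest, C3ar1 ranked 495th and Ptafr 1167th. This fraction was defined by its surface markers, and whether the sort touched these surface receptors was not tested.

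Between the aberrant-marker and normal-marker fractions of the conditional knockout, Fpr1 (log2 difference -5.26), C5ar1 (-3.12) and Fpr2 (-2.68) were called lower and C3ar1 (2.79) higher, where 3.26% of genes were lower and 4.02% higher. Ptafr differed by 1.13 and was not called. Both comparisons of the aberrant-marker library rest on the same aberrant-marker samples. With the wild type set against the conditional control, 0 of the 6 were called, where 0.935% of genes were higher and 1.17% lower.

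**Figure D2:**
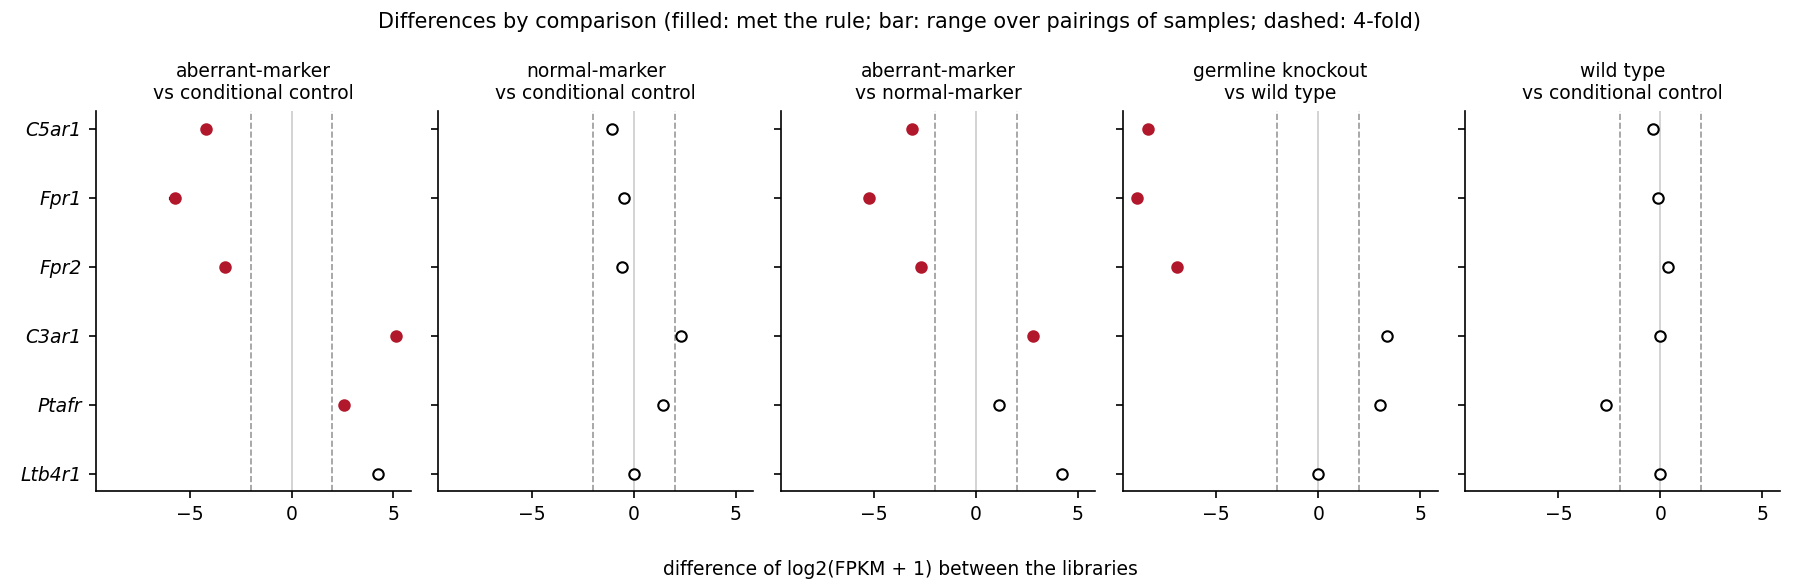
Differences of log2(FPKM + 1) between libraries for the 6 receptors in the 5 comparisons; filled points met the rule of size, bars span every pairing of samples (mostly hidden by the points) and dashed lines mark 4-fold. C5ar1, Fpr1 and Fpr2 are filled on the left in 3 comparisons, down to -5.72 for Fpr1 in the aberrant-marker library and -8.87 in the germline knockout, and 0 of the 6 are filled in the comparison of both controls. Points against a library listed at 0 depend on the added 1 FPKM.

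In whole libraries, fewer cells of a type and less RNA per cell cannot be told apart. Neutrophils are rich in these receptors, so 14 neutrophil markers were read beside them. Of these, Ly6g, Elane, Mpo, Ltf, Ngp, Retnlg and Mmp9 were listed at 0 in all 5 libraries, and S100a9 in 4 of 5 (0.410 FPKM in the germline knockout). The summed level of the list was 78.3 to 83.1 FPKM in the conditional control samples, 121 to 122 in the normal-marker, 11.2 to 20.7 in the aberrant-marker, 48.2 to 48.4 in the wild-type and 58.7 to 69.2 in the germline knockout samples. Between 3 and 5 of the 14 were at 1 FPKM or more in each library. In the controls these included Mmp8, S100a8, Csf3r and Cxcr1, at 4.83 to 43.7 FPKM. Mmp8, a collagenase of neutrophil granules, was called lower in the aberrant-marker library against the conditional control (43.7 to 1.54 FPKM) and in the germline knockout against the wild type (27.0 to 0.782 FPKM). S100a8 was called higher in the germline knockout (4.83 to 43.7 FPKM) and stood at 12.3 and 10.5 FPKM in the conditional control and the aberrant-marker library. Csf3r was at 9.80 FPKM in the wild type and 0.109 FPKM in the germline knockout, and Cxcr1 at 13.6 FPKM in the conditional control and listed at 0 in the aberrant-marker library, both under the floor. Also under the floor, Cxcr2 (0.700 to 6.30 FPKM) and Lcn2 (0 to 6.95) were higher in the germline knockout than in the wild type. Over the 6 markers that entered, the median log2 difference was 1.02 in that comparison. It was -0.79 in the aberrant-marker library against the conditional control. The part of neutrophils in the receptors' levels was not tested.

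Several of the 10 markers of alveolar macrophages moved with C5ar1, Fpr1 and Fpr2, and others did not. Of the 10, 6 were called lower in the aberrant-marker library against the conditional control, where 3.76% of all genes were. The median log2 difference of the 10 was -2.48, against 0 over all genes. The 6 were led by Marco (224 to 0.258 FPKM), Siglec5 (197 to 0.134), Krt79 (477 to 13.8) and Ear2 (3670 to 315), with Car4 and Mrc1 after them. In the germline knockout against the wild type 4 were called lower, where 3.36% of all genes were, and 1 higher, where 2.73% were. The 4 were Siglec5 (151 to 0.0247 FPKM), Krt79 (369.6 to 4.20), Marco (339 to 13.5) and Ear2 (5139 to 254.5), and the 1 was Chil3 (9278 to 46574). The median of the 10 was -1.23. The summed level, most of it Chil3, was 14557 to 14762 FPKM in the conditional control samples, 33013 to 33346 in the normal-marker, 8875 to 9003 in the aberrant-marker, 16547 to 16689 in the wild-type and 47662 to 47888 in the germline knockout samples. Itgax, Pparg and Fabp4 were called in neither comparison. In the germline knockout against the wild type, Itgax (289 to 365 FPKM) and Fabp4 (145 to 181) were higher and Pparg (153 to 79.3) lower. In the normal-marker library against the conditional control, Car4 (308 to 1123 FPKM) and Fabp4 (104 to 286) were higher. Krt79 (477 to 205) and Siglec5 (197 to 94.1) were lower there, and 0 of the 10 were called.

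Many markers of other cells were higher in the aberrant-marker library, as were C3ar1 and Ptafr. C5ar1, Fpr1 and Fpr2 were lower there. All 7 measured T cell markers were at 1 FPKM or more there, with a summed level of 249 to 251 FPKM, and at most 1 was in any other library (summed 0 to 0.0372 in the conditional control, 4.74 to 5.58 in the normal-marker, 0.166 to 0.225 in the wild type, and 41.6 to 41.9, nearly all of it Il7r, in the germline knockout). Called higher there were Il7r (108 FPKM), Lat (37.9), Lck (29.6) and Cd3g (24.1), and Il7r was called higher in the germline knockout. Of 10 dendritic cell markers, 8 were at 1 FPKM or more, summed to 2299 to 2331 FPKM against 73.2 to 74.6 in the conditional control, 73.9 to 86.4 in the normal-marker, 53.1 to 60.5 in the wild-type and 121 to 125 in the germline knockout library. Of these, 6 were called higher in the aberrant-marker library, led by Ccr7 (1564 FPKM), Fscn1 (309), Cd209a (109) and Flt3 (37.4), and Ccr7 (71.6) was called higher in the germline knockout. Xcr1 and Clec9a, at 2.09 and 1.90 FPKM in the conditional control, were lower in the aberrant-marker library. Of all genes compared, 4.09% were called higher and 3.76% lower in the aberrant-marker library against the conditional control. In the germline knockout against the wild type 2.73% were called higher and 3.36% lower, and in the normal-marker library 0.935% and 0.838%. Of 12 monocyte and interstitial macrophage markers, 8 were at 1 FPKM or more in the aberrant-marker (summed 991 to 998 FPKM) and in the germline knockout library (435 to 441), against 6 in the conditional control (125 to 125), 5 in the normal-marker (177 to 186) and 2 in the wild type (160 to 167); Folr2 was listed at 0 in all 5. C1qa, C1qb, C1qc, which encode the complement component C1q, and Itgam were called higher in both, C1qb the most abundant at 375 FPKM in the aberrant-marker and 154 FPKM in the germline knockout library; Fcgr1 was called lower in the germline knockout and was not called in the aberrant-marker library. In the normal-marker library Batf3 (8.06 to 45.9 FPKM) and C1qb (1.01 to 21.3) were called higher. Of 6 lung epithelium markers, Hopx was called higher and Epcam lower in both comparisons and Scgb1a1 was lower in the wild type than in the conditional control (6.56 and 39.7 FPKM), and of 9 eosinophil, basophil and mast cell markers 0 were called. The part of these cells in the receptors' levels was not tested.

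C5ar2, the second C5a receptor, is the annotated neighbour of C5ar1, and its mean level was 0.276 FPKM in the aberrant-marker library and 6.13 to 10.7 FPKM in the other 4, below the floor throughout. Fpr3, the neighbour of Fpr2, was at 0.0471 FPKM or less on average in all 5 libraries, and Fpr-rs3, Fpr-rs4, Fpr-rs6, Fpr-rs7, Cysltr2 and Ltb4r2, the low-affinity leukotriene B4 receptor beside Ltb4r1, were listed at 0 in all 5. Of 25 related receptors, 15 entered the comparisons. In the aberrant-marker library against the conditional control 2 were called higher and 2 lower, where 4.09% and 3.76% of all genes were, with a median log2 difference of 0.41 over those that entered, against 0 over all genes. Gpr183, a receptor for oxysterols, was listed at 0 in the conditional control and at 64.1 FPKM, and the adenosine receptor gene Adora2a was listed at 0 and at 39.9 FPKM. P2ry13 was called lower, at 53.0 FPKM in the conditional control and 0.0964 FPKM in the aberrant-marker library, and so was P2ry2, a receptor for ATP and UTP (64.1 and 6.45 FPKM), which was at 8.03 FPKM in the wild type. In the germline knockout against the wild type, P2ry13 alone was called (77.9 and 0.0231 FPKM), where 3.36% of all genes were lower, with a median of -0.06 over the list against 0 over all genes. Ptger4, an E prostanoid receptor, was called higher in the aberrant-marker library against the normal-marker library (80.6 and 80.1 FPKM in its samples, against 11.1 and 12.8 FPKM).

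In the aberrant-marker and germline knockout libraries 3 genes of leukotriene synthesis were lower and a gene of platelet-activating factor breakdown was higher. Alox5, the 5-lipoxygenase that starts leukotriene synthesis, went from 192 FPKM in the conditional control to 17.1 FPKM in the aberrant-marker library, and from 185 FPKM in the wild type to 4.75 FPKM in the germline knockout. Lta4h, which makes leukotriene B4, went from 83.2 to 15.3 FPKM in the first comparison and from 63.6 to 14.2 in the second, and Ltc4s, which makes leukotriene C4, from 515 to 112 and from 1128 to 47.3 FPKM. All 3 were called lower in both comparisons and not called in the normal-marker library, at 153, 130 and 572 FPKM. Pla2g7, the acetylhydrolase that degrades platelet-activating factor, was called higher in both, from 3.31 to 62.3 and from 7.05 to 57.8 FPKM. Lpcat1, an acyltransferase of the same pathway, was called higher in the aberrant-marker library (1.16 to 85.8 FPKM) and stood at 9.11 FPKM in the germline knockout, where Lpcat2, the main enzyme that makes the factor in leukocytes, was called higher (4.16 to 28.2 FPKM).

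Of the protein ligands and their makers, Cfb, which builds the alternative pathway convertase, was called lower in the aberrant-marker library (100.3 to 18.2 FPKM), and Cfp, the gene of properdin, was called lower in the germline knockout (186 to 37.6 FPKM). Saa3, a serum amyloid A that is a ligand of Fpr2, was listed at 0 in the wild type and was at 36.5 FPKM in the germline knockout. Anxa1, the annexin A1 gene, was at 518 to 986 FPKM in all 5 libraries and was called in none of the comparisons. Hc, the gene of complement C5, was at 0.208 FPKM or less on average in each library. Of the 29 ligand and enzyme genes on this list 26 were found and 19 entered. C3, Alox5ap and Pla2g4a were not found under these symbols, so their levels are not known here. In the aberrant-marker library 2 were called higher and 4 lower, where 4.09% and 3.76% of all genes were (median log2 difference -0.90 against 0 over all genes). In the germline knockout 4 were higher and 4 lower, where 2.73% and 3.36% of all genes were (median -0.06 against 0). In the normal-marker library C4b and Pla2g7 were called higher and Pafah1b3 lower.

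Of 42 genes of the G protein machinery that these receptors share, all found, 41 entered. In the aberrant-marker library 2 were called higher and 1 lower, near the 4.09% and 3.76% of all genes (median log2 difference -0.22 against 0 over all genes). Rgs1, which shortens signals of Gi-coupled receptors, was at 0.0388 FPKM in the conditional control and 1034 FPKM in the aberrant-marker library, although the wild type held 18.1 FPKM, and Rgs10 was at 20.9 and 200 FPKM. Plcb2, a phospholipase C driven by these receptors, was called lower (23.4 and 1.95 FPKM). In the germline knockout against the wild type, Rgs10 (7.48 and 50.3 FPKM) and Gng12, a G protein gamma subunit (1.79 and 63.4 FPKM), were called higher and Rgs2 (27.0 and 4.27 FPKM) lower, where 2.73% and 3.36% of all genes were, with a list median of -0.51 against 0. In the normal-marker library 0 of the 42 were called. Gnai2, the most abundant Gi subunit on the list, was at 628 and 661 FPKM in the controls, 471 and 296 FPKM in the normal-marker and aberrant-marker libraries and 265 FPKM in the germline knockout, and was called in none of the comparisons. Pik3r6, an adaptor of the kinase that these receptors activate, was listed at 0 in the germline knockout and was at 16.5 FPKM in the wild type, below the floor.

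**Figure D3:**
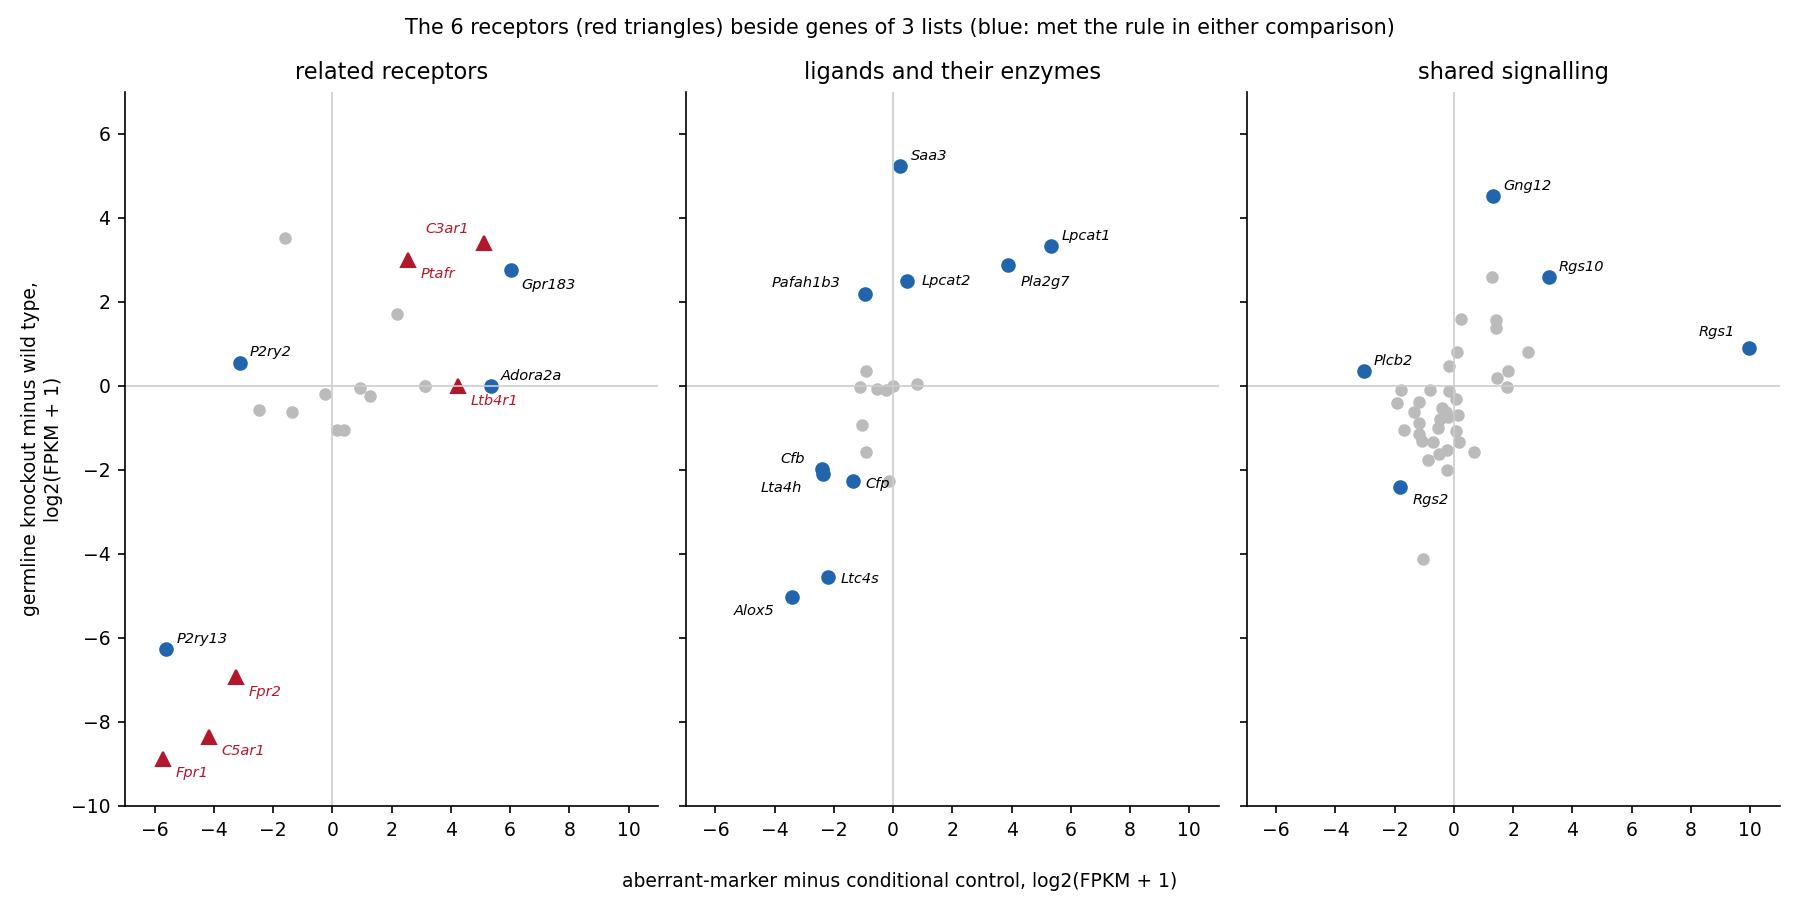
Differences of log2(FPKM + 1) of the aberrant-marker library from the conditional control (horizontal) and of the germline knockout from the wild type (vertical), for the 6 receptors (triangles, left panel) and for the genes of 3 lists that entered the comparisons; blue points met the rule of size in either comparison. C5ar1, Fpr1 and Fpr2 lie at the lower left with P2ry13, and Alox5, Ltc4s and Lta4h lie on the same side among the enzymes, whereas most signalling genes lie near the centre.

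Genes whose levels ran most like those of the receptors over the 5 libraries were sought among the 5341 genes that reached 20 FPKM in any library, which Ltb4r1 did not. Likeness was the mean absolute difference between 2 genes' log2(FPKM + 1) profiles, each centred on its own mean. For C5ar1 these were Il18, a cytokine of the interleukin-1 family (0.45 log2 units), Fabp1, a fatty acid binding protein (0.54), and Igflr1 (0.54), with Fpr2 in the 4th and Fpr1 in the 5th place. For Fpr1 they were Fabp1 (0.30), C5ar1 (0.57) and Siglec5 (0.75), with Fpr2 in the 17th place, and for Fpr2 they were Igflr1 (0.37), Il18 (0.37) and Acaa1b (0.37), with C5ar1 in the 8th place and Fpr1 in the 94th. The neighbouring genes Fpr1 and Fpr2 were therefore each closer to C5ar1 than to each other by this measure. For C3ar1 they were Hopx (0.10), H2-Q9 (0.21) and Sdc4 (0.25), and for Ptafr they were Ubxn2a (0.27), Ext1 (0.34) and Procr (0.42), with C3ar1 in the 463rd place. With 5 libraries these distances describe the profiles and were not tested.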

How the data were processed

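RNA from alveolar macrophages was sequenced from 10 samples in 5 groups. Per the labels' protocols, 100 pg of RNA per sample were amplified by SMARTer chemistry with 18 PCR cycles. The deposited table holds FPKM made by the authors for 45913 RefSeq transcripts. The submitters' processing notes name Bowtie 1.1.2 and eXpress 1.5.1 without a role; the genome build is not given in the sources used here. Reads shared by similar genes are divided by estimate, the libraries do not mark strand, and there are no molecular identifiers. Column sums were 625660 to 668491 FPKM.

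Transcript values sharing an Entrez identifier were added up with Python 3.11.15, numpy 2.4.6 and pandas 2.3.3. Depth was estimated from the commonest product of low values and GENCODE M21 transcript lengths, so fragment numbers are approximate. A pseudocount of 1 FPKM was added before log2. The size rule, with limits of 2 log2 units and 20 FPKM, replaces a test, because each group is 1 library. It was tried on simulated data that held counting noise only. These cannot show how often the rule calls genes between separate libraries. Named were the 6 receptors, called members of the lists of related receptors, ligands and enzymes, shared signalling and cell type markers (at most 4 per list and direction, in the comparisons with a control library), and the 3 genes most like each receptor that reached 20 FPKM; others were named for their values. Members and lists were chosen with earlier results of these data known. Alternatives were another pseudocount, floor, threshold, scaling, transcript rule, filter and reference library, and each sample left out.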

Additional observations from a re-analysis of the deposited data

Results flagged for a closer look

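In 3 genes of the lists, every pairing of samples moved one way in the aberrant-marker library (against the conditional control) and the other way in the germline knockout (against the wild type), and at least one of the changes met the rule of size. P2ry2 had log2 differences of -3.13 and 0.55, a difference of -3.68 between them. Plcb2 had -3.05 and 0.35, a difference of -3.40. Pafah1b3, a subunit of an enzyme that degrades platelet-activating factor, had -0.95 and 2.20, a difference of -3.15. P2ry2 and Pafah1b3 were also called lower in the wild type against the conditional control (log2 differences -2.85 and -2.14), and Plcb2 was not. The differences between the 2 knockouts were not tested, because each group is 1 library.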

How the results depend on the processing

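The calls of C5ar1, Fpr1 and Fpr2 as lower in the aberrant-marker and germline knockout libraries, and of C3ar1 and Ptafr as higher in the aberrant-marker library against its control, were kept under all alternatives run, including the other control library as the reference (for the germline knockout this was added after the data were seen). Of 288 alternative values of single receptors, 279 stayed on their side of the rule, 9 newly met it and 0 reversed. With a floor of 5 FPKM in place of 20, Ltb4r1 was called in both aberrant-marker comparisons, C3ar1 and Ptafr were called in the germline knockout (5 of 6 receptors), and Ptafr between the controls (1 of 6). Scaling the columns to a common sum also called Ltb4r1. With a 2-fold threshold, C5ar1 was called in the normal-marker library (1 of 6) and Ptafr between the 2 conditional knockout fractions.

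Counts over all genes moved more than the receptors did. The aberrant-marker, normal-marker, aberrant against normal, germline knockout and control comparisons had 890, 106 higher and 95 lower, 825, 691 and 239 called genes; with a floor of 5 FPKM they had 2180, 1064, 2165, 1926 and 1198, and with a 2-fold threshold 2010, 837, 1979, 1713 and 902. Columns scaled to a common sum gave 411 for the normal-marker, 1048 for the germline knockout and 495 for the control comparison, and the wild type as the reference gave 319 for the normal-marker library. Depth and the small input limit the low genes: C3ar1, Ltb4r1 and Ptafr were listed at 0 in some control libraries where a low level may have gone undetected. Leaving out either sample changed no count of called receptors, and it tests sequencing and not animals. No paired analysis was possible because the results come from no test and the labels' sample numbers are not shared between groups.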
